A study of Mus musculus with 8 samples.

Results

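In right hippocampus, 6 genes known as markers of the choroid plexus epithelium were followed: Ttr, Folr1, Ecrg4, Enpp2, Trpm3 and Kcne2. They were named with earlier results of these data known, and every array probe with values whose annotated symbol is 1 of the 6 was taken; Ecrg4 stands in the array annotation under its old symbol 1500015O10Rik. Of 8 annotated probes 6 had values, 1 for each gene, so the account covers 6 of 11011 genes with values. RNA was measured on one-colour Mouse Whole Genome OneArray chips, with 2 arrays for each of 4 groups of male C57BL/6 mice aged 6 to 8 weeks; the methods give the wild-type mice as C57BL/6J and the knockout line as bred for several generations to the C57/BL6 background. KTR is Cav3.2 (Cacna1h) homozygous knockout after trace fear conditioning (TFC) and a contextual memory test, KNR is naïve Cav3.2 knockout, WTR is wild-type after the same TFC and test, and WNR is naïve wild-type. TFC pairs a tone with a foot shock across an empty interval, and the trained mice were killed right after the memory test a day later. Tissue of 3 mice went into each pool. It is unclear from the labels and the methods if duplicate arrays came from different pools, and p-values here cover array-to-array spread, perhaps technical, and not differences between mice.

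The choroid plexus is a folded, ciliated epithelium around leaky capillaries in the brain ventricles. It secretes cerebrospinal fluid and carries hormones, vitamins and ions between blood and brain. A sheet of it lies along the hippocampus in the lateral ventricle, so a dissected hippocampus can bring pieces of it along. Ttr, transthyretin, carries thyroxine and the retinol-binding protein and is made in this epithelium in very large amounts. Folr1 is the folate receptor that moves folate across the epithelium, and Ecrg4 is the precursor of the secreted peptide augurin. Enpp2, autotaxin, is a secreted enzyme that makes lysophosphatidic acid and is also made by oligodendrocytes. Trpm3 is a cation channel that many neurons express as well, and Kcne2 is a small subunit that pairs with potassium channels at the face of the epithelium turned to the fluid.

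RefSeq windows of the 250 bases before an annotated start were at hand for 3 of the 6 genes (Ecrg4, Trpm3 and Kcne2; build GRCm38.p6), and they are used here only to describe sequence. Of 4 motifs, 3 were searched first on both strands, the OTX2 motif TAATCC, the forkhead motif TGTTTAC and the full cyclic AMP response element TGACGTCA, and none of them occurred in any of these windows. They occur in 6.25%, 3.17% and 1.55% of all 32851 windows of this length. The fourth, the short core TGACG of that element (reverse complement CGTCA), was searched after the windows had been read. It occurred once before Ecrg4 and 2 times before the first start of Kcne2, against at least once in 17.8% of all windows, and not in the second Kcne2 window or in the 2 Trpm3 windows. The windows of Ecrg4 (chr1:43730352-43730601, plus strand) and Kcne2 (chr16:92292139-92292388, plus strand) are shown because both genes were higher after training in both genotypes; capitals mark this core.
Ecrg4: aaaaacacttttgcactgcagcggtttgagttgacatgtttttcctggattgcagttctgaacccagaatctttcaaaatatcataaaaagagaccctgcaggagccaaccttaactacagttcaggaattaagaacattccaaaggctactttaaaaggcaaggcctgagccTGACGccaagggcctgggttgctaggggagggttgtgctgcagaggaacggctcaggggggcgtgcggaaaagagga
Kcne2: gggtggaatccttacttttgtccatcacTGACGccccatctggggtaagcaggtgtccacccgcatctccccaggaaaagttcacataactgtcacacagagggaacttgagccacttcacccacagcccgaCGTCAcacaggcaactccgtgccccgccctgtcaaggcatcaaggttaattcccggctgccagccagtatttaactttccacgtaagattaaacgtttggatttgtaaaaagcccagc

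Levels are the deposited intensities, normalized between arrays, and differences are on the log2 scale after values under 100 were set to 100. Every comparison was tested with limma and Benjamini-Hochberg adjustment over all probes tested, once on its own 4 arrays (the pairwise fit) and once in a fit of all 8 arrays, in which the 4 groups share 1 estimate of the spread. An adjusted p below 0.05 is called passing, and SE is the standard error of a log2 difference. Between 5.76% and 5.9% of the values on an array lay under 100, and the correlation of duplicate arrays was 0.988 to 0.991, against 0.947 to 0.988 for other pairs. KNR replicate 1 and KTR replicate 2 stood apart, at -38.1 and 41.2 on the first principal component (44.2% of the variance), and their correlation was the lowest of all pairs. On the second component (22.2% of the variance) both WNR arrays lay above all others, at 27.7 and 25.1 against -18.6 to 0.348. WNR is the group with which both WTR and KNR are compared, and why its arrays lay there was not tested. The number of arrays limits the precision. The probe for Cacna1h, the deleted gene, read 1036 and 1440 in KTR and 1551 and 1489 in KNR, against 2084 and 2340 in WTR and 2575 and 2385 in WNR. It was thus lower on all 4 knockout arrays but not absent; whether the probe lies in the deleted part was not stated. In the fit of all 8 arrays its log2 difference was -0.71 in KNR against WNR (adjusted p = 0.0485). In KTR against WTR it was -0.85 (adjusted p = 0.0527). Of listed markers of the labelled tissue, 10 of 15 dentate granule cell genes and 12 of 17 pyramidal cell genes had values, none of them under 100 on all arrays. The lists of red blood cell genes and of thalamus and habenula genes likewise held no measured gene under 100 on all arrays. Since few values lay under 100, this does not identify the tissue.

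The 6 genes spanned a wide range of brightness. By mean intensity over the 8 arrays Ttr stood at percentile 98.8 of all probes with values, Ecrg4 at 68.7, Trpm3 at 48.4, Enpp2 at 30.8, Kcne2 at 19.9 and Folr1 at 13.2. Brightness depends on the probe, so these ranks do not compare the amounts of the transcripts. Ttr made up most of the summed intensity of the 6 genes, which was 22984 to 25230 in KTR, 20882 to 21416 in KNR, 29305 to 35885 in WTR and 17363 to 18052 in WNR. No array of one group fell inside the range of another group in that sum.

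Ttr read 20596 and 22954 in KTR against 19518 and 20040 in KNR, and 26361 and 33147 in WTR against 16383 and 15543 in WNR. The order was WTR, KTR, KNR, WNR with no overlap between neighbours, although KTR and KNR lay close. Folr1 was dim, at 161 and 139 in KTR against 106 and 79.1 in KNR, and 203 and 229 in WTR against 74.2 and 88.6 in WNR. Both WNR arrays and 1 KNR array lay under 100, the KNR and WNR arrays overlapped, and every trained array was above every naïve array. Ecrg4 read 1228 and 1009 in KTR against 683 and 590.1 in KNR, and 1743 and 1664 in WTR against 792.5 and 793.5 in WNR. As for Folr1 and Ttr, the 4 trained arrays of Ecrg4 lay above the 4 naïve arrays. Unlike for Folr1 and Ttr, the knockout arrays of Ecrg4 lay below the wild-type arrays within each training state.

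Kcne2 gave 199 and 226 in KTR against 131 and 139 in KNR, and 188 and 209.1 in WTR against 132 and 109 in WNR. The trained groups overlapped with each other and the naïve groups overlapped with each other, with a gap between trained and naïve. Enpp2 gave 159 and 114 in KTR against 224 and 212 in KNR, and 346 and 336 in WTR against 276 and 278 in WNR. The 4 groups did not overlap, and both knockout groups lay under both wild-type groups, with the trained group highest in wild-type and lowest in knockout mice. Trpm3 gave 642 and 788 in KTR against 219 and 355 in KNR, and 464 and 299.9 in WTR against 394 and 551 in WNR. Its duplicates lay far apart, and KTR was the only group that did not overlap with any other.

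**Figure D1:**
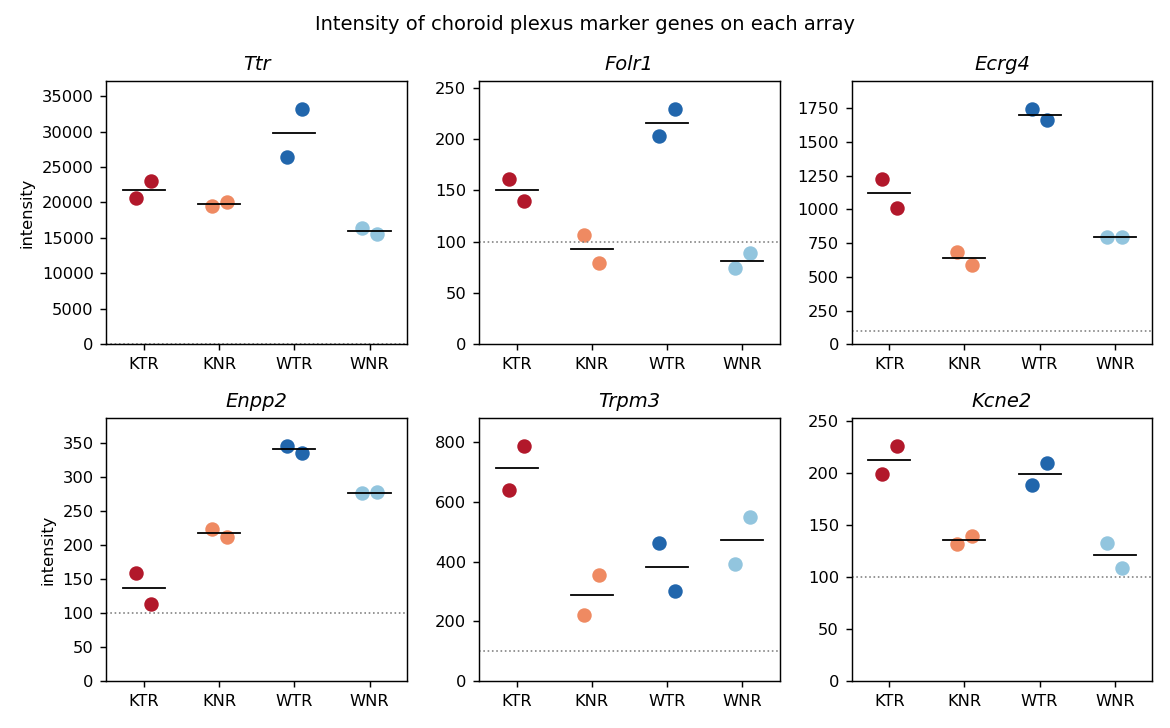
Intensity of each gene on each array (points, 2 per group), with the group mean as a black bar and a dotted line at 100, the value to which lower intensities were set. Ttr, Folr1, Ecrg4 and Kcne2 were higher on all 4 trained arrays (KTR, WTR) than on all 4 naïve arrays (KNR, WNR), Enpp2 was lowest in KTR (159 and 114), and Trpm3 was highest in KTR (642 and 788).

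Training in wild-type mice (WTR against WNR) asks which transcripts differ after TFC and memory retrieval. With all 8 arrays in the fit, 4 of these 6 genes rose: Folr1, Ecrg4, Ttr and Kcne2. For comparison, 3.25% of all 16204 probes tested were called higher in this comparison. Folr1 was at least 2.16-fold higher (log2 difference 1.11, SE 0.12, adjusted p = 0.0255 in limma), since both WNR arrays lay under 100. Ecrg4 was 2.15-fold higher (1.10, SE 0.13, adjusted p = 0.0255). Ttr was 1.85-fold higher (0.89, SE 0.13, adjusted p = 0.029), and Kcne2 was 1.65-fold higher (0.73 on the log2 scale, SE 0.13, adjusted p = 0.0339). Enpp2 had a log2 difference of 0.30 (SE 0.16, adjusted p = 0.277) and Trpm3 one of -0.32 (SE 0.31, adjusted p = 0.558), and neither passed. The arrays of WTR lay above those of WNR without overlap for 5 of the 6 genes, against 26.7% of all 16383 probes with values. In the pairwise limma fit 0 of 6 genes passed and 0% of all probes were called. The 4 genes named each had adjusted p = 0.0986. An unadjusted p under 0.05 was found for 5 of 6 genes and for 3935 of all 15787 probes tested. By Significance Analysis of Microarrays (SAM) 1 of the 6, Ecrg4, passed. SAM was used here in a version rewritten after the first could call nothing. The calls needed nearly every array: without either WNR array, either WTR array or either KNR array 0 of 6 passed, and without KTR replicate 1 or without KTR replicate 2 2 of 6 did. With values under 200 set to 200, Folr1 (log2 difference 0.11, adjusted p = 0.366) and Kcne2 (0.032, adjusted p = 0.966) lost their calls and Enpp2 gained one (0.30, adjusted p = 0.0187). The direction of the 4 genes did not change in any of these.

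Training in knockout mice (KTR against KNR) was followed by higher values of Ecrg4, Trpm3, Kcne2 and Folr1 and a lower value of Enpp2 in the fit of all 8 arrays. For comparison, 6.6% of all probes tested were called higher and 9.29% lower here. Trpm3 had the largest difference, 2.55-fold (log2 difference 1.35, SE 0.31, adjusted p = 0.0344 in limma). Ecrg4 was 1.75-fold higher (0.81, SE 0.13, adjusted p = 0.022), Kcne2 1.57-fold (0.65, SE 0.13, adjusted p = 0.0295) and Folr1 at least 1.45-fold (0.54, SE 0.12, adjusted p = 0.0316). Enpp2 fell by 0.70 on the log2 scale (SE 0.16, adjusted p = 0.0344). Ttr did not pass, with a log2 difference of 0.14 and a 95% interval of -0.18 to 0.45 (adjusted p = 0.484). The KTR arrays lay above the KNR arrays for 5 of 6 genes, against 32.9% of all probes with values. In the pairwise limma fit 0 of 6 passed (adjusted p 0.0681 to 0.0896 for the 5 genes named) and 0% of all probes were called. In that fit 5 of 6 genes and 5393 of all 15902 probes tested had an unadjusted p under 0.05. SAM called 0 of 6. Without KNR replicate 1 or without KTR replicate 2, the arrays that stood apart, 0 of 6 passed in the fit of all 8 arrays, and without KNR replicate 2 or without KTR replicate 1 2 of 6 did. Without either WNR array 3 of 6 passed, and without either WTR array 4 of 6, with Enpp2 lost.

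The 2 training comparisons share no array. Positive differences in both were found for 4 of the 6 genes, Ttr, Folr1, Ecrg4 and Kcne2, and for 26.6% of all probes tested. Enpp2 and Trpm3 pointed to opposite sides. Whether the training difference itself depended on genotype was tested as the interaction, the KTR minus KNR difference less the WTR minus WNR difference. In limma 0 of the 6 genes passed by adjusted p, with 5.18% of all probes called. An unadjusted p under 0.05 was found for 4 of 6 genes and for 4662 of all 16204 probes tested. The interaction was -0.9999 for Enpp2 (95% interval -1.53 to -0.47, adjusted p = 0.0518), -0.75 for Ttr (-1.20 to -0.31, adjusted p = 0.0605), 1.67 for Trpm3 (0.65 to 2.69, adjusted p = 0.0651) and -0.57 for Folr1 (-0.96 to -0.18, adjusted p = 0.0823). For Ecrg4 it was -0.29 (-0.73 to 0.14, adjusted p = 0.333) and for Kcne2 -0.08 (-0.52 to 0.37, adjusted p = 0.817), so for these 2 genes an interaction within those limits could not be seen with 2 arrays per group.

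The genotype comparison after training (KTR against WTR) had 1 passing gene in the fit of all 8 arrays. Enpp2 was 2.54-fold lower in KTR (log2 difference -1.34, SE 0.16, adjusted p = 0.0251 in limma), and 1.26% of all probes were called lower. Without any single array other than KTR replicate 1 this call was lost (adjusted p 0.0575 to 0.167), and the difference kept its sign under every alternative. Ecrg4 had a log2 difference of -0.61 (adjusted p = 0.0605), Folr1 of -0.53 (adjusted p = 0.0682), Ttr of -0.44 (adjusted p = 0.116), Trpm3 of 0.93 (adjusted p = 0.137) and Kcne2 of 0.09 (adjusted p = 0.72). The KTR arrays lay below the WTR arrays for 4 of 6 genes, Ttr, Folr1, Ecrg4 and Enpp2, against 25.6% of all probes with values. In the pairwise limma fit 0 of 6 passed (Enpp2 adjusted p = 0.134) and 0.00634% of all probes were called. In that fit 5 of 6 genes and 3404 of all 15779 probes tested had an unadjusted p under 0.05. SAM called 0 of 6.

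In naïve mice (KNR against WNR) 0 of the 6 genes passed in the fit of all 8 arrays, where 8.02% of all probes did. In limma 2 of 6 genes and 4704 of all 16204 probes tested had an unadjusted p under 0.05. The log2 differences were -0.74 for Trpm3 (adjusted p = 0.164), -0.32 for Ecrg4 (adjusted p = 0.157), -0.34 for Enpp2 (adjusted p = 0.201), 0.31 for Ttr (adjusted p = 0.178), 0.17 for Kcne2 (adjusted p = 0.442) and 0.04 for Folr1 (adjusted p = 0.837), for which 3 of the 4 arrays lay under 100. KNR lay below WNR without overlap for 3 of 6 genes, Ecrg4, Enpp2 and Trpm3, against 27.4% of all probes with values. The pairwise fit and SAM called 0 of the 5 genes they tested, and 0% of all probes were called in the pairwise fit. There 3 of the 5 genes and 4323 of all 15829 probes tested had an unadjusted p under 0.05 in limma. Ttr lay above WNR in KNR and below WTR in KTR, on all arrays.

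**Figure D2:**
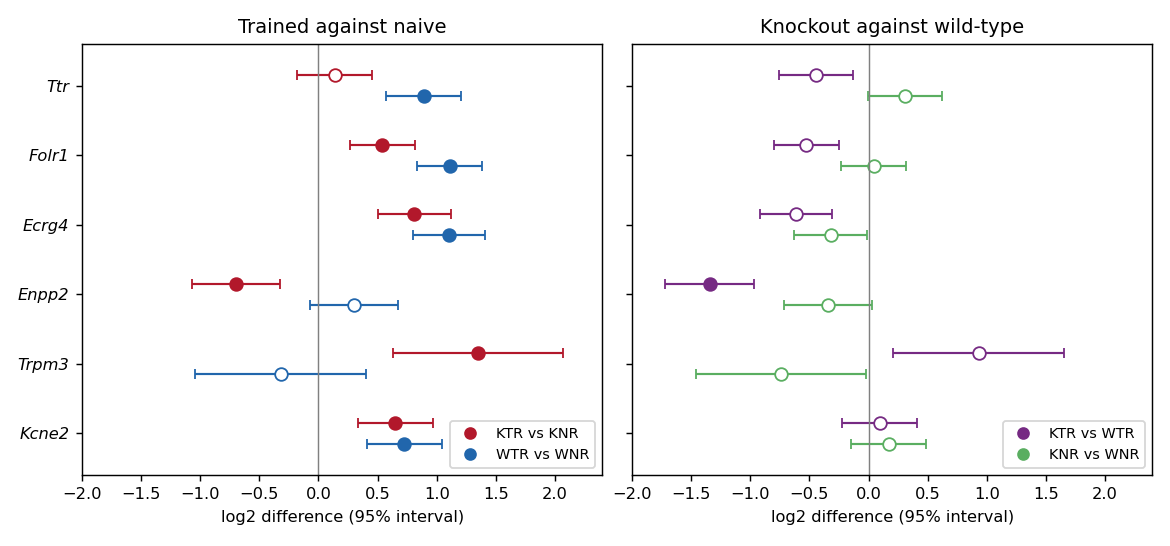
Log2 differences (points) with 95% intervals (bars) for each gene in the fit of all 8 arrays, trained against naïve on the left and knockout against wild-type on the right; filled points passed an adjusted p of 0.05. Ttr, Folr1, Ecrg4 and Kcne2 lay to the right of 0 in both training comparisons, though the interval of Ttr in KTR against KNR crossed 0 (-0.18 to 0.45). Enpp2 in KTR against WTR (-1.34) was the only filled point in the right panel.

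Over the 8 arrays the log2 intensities of Folr1 and Ecrg4 ran most closely together (Pearson's r = 0.961), followed by Ttr and Folr1 (0.903), Folr1 and Kcne2 (0.813), Ttr and Kcne2 (0.793), Ttr and Ecrg4 (0.769) and Ecrg4 and Kcne2 (0.734). Enpp2 followed none of these, with r from -0.343 with Kcne2 to 0.281 with Ecrg4, and Trpm3 had r from -0.132 with Ttr to 0.373 with Kcne2. Enpp2 and Trpm3 ran against each other (-0.553). These values describe 8 arrays that fall into 4 groups, so they mostly restate the group differences. Among 1883 candidate probes the closest to the mean of the 6 were Jrk, a nuclear protein (r = 0.898), Hspa1l, a heat shock protein (0.894), Pcp2 (0.881), Vwa2 (0.877) and the olfactory receptor Olfr167 (0.877). Closest to Ttr alone were Pcp4, a calmodulin-binding protein (0.883), Sp3os (0.875), Atad3aos (0.871), Ip6k2, an inositol phosphate kinase (0.865), and Fxyd1, a regulator of the sodium pump (0.842). Pcp4 read 15054 and 15737 in KTR against 14997 and 14235 in KNR, and 17923 and 18657 in WTR against 8777 and 10005 in WNR, so its KNR arrays lay above WNR, which those of Folr1, Ecrg4 and Kcne2 did not.

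Whether other genes of the same epithelium differed in the same way was looked at in a list of 44 further choroid plexus markers, of which 27 had values and 26 were tested. After training in wild-type mice 2 of 26 rose, Slc13a4, a sulfate transporter (log2 difference 0.81, adjusted p = 0.0347), and Igf2, a growth factor of choroid plexus and meninges (0.63, adjusted p = 0.0302), and 0 fell, against 3.25% of all probes called higher and 2.99% lower. The median of the list was 0.107, against -0.0023 over all probes. After training in knockout mice 4 of 26 rose, Wfdc2, a secreted protease inhibitor (0.84, adjusted p = 0.0279), the clotting factor F5 (0.70, adjusted p = 0.0475), the tight junction protein Cldn1 (0.69, adjusted p = 0.0203) and Kl, the FGF23 co-receptor klotho (0.46, adjusted p = 0.0369). Pcolce2, which enhances procollagen processing, fell by 1.36 (adjusted p = 0.02). The median of the list was 0.22, against -0.0105 over all probes, and 6.6% of all probes were called higher and 9.29% lower. No gene of the list passed in both training comparisons. Differences were positive in both for 10 of the 26 (38.5%, against 26.6% of all probes) and negative in both for 0 (against 28.8%). Of lists described below, ependyma and thalamus with habenula also had 38.5% positive in both, and carriers and receptors of thyroid hormone and retinol had 58.8%. Their shares negative in both were 30.8%, 23.1% and 11.8%. In the remaining lists 0% to 30.8% were positive in both, apart from the 3 further Trpm channels (66.7%). Every call of this paragraph is limma's in the fit of all 8 arrays.

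**Figure D3:**
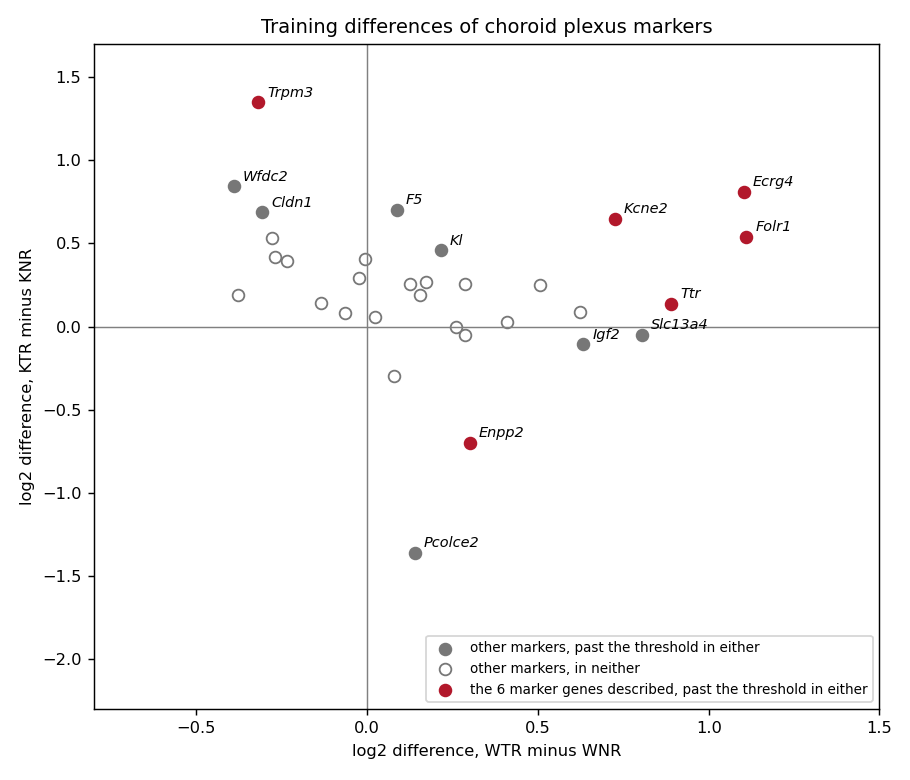
Log2 differences between trained and naïve arrays in knockout mice (vertical axis) and wild-type mice (horizontal axis) for the 6 genes (red) and 26 further choroid plexus markers (grey); filled points passed in at least 1 of the 2 comparisons in the fit of all 8 arrays. Folr1, Ecrg4 and Kcne2 lie at the upper right, and no further marker was as high on both axes.

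Several defining markers of the epithelium were dim or had no values. Aqp1, Prlr, Kcnj13, Tmem72 and Lmx1a were among the 17 listed markers without values. Otx2, the transcription factor that specifies this epithelium, and Sostdc1, a secreted antagonist of BMP and Wnt signals, were singled out after their values had been seen. Otx2 read 184 and 154 in KTR against 158 and 158 in KNR, and 209 and 248 in WTR against 135 and 161 in WNR (WTR against WNR log2 difference 0.62, adjusted p = 0.0532). Sostdc1 read 110.2 and 85.5 in KTR against 106 and 78.0 in KNR, and 133 and 132 in WTR against 68.1 and 70.3 in WNR (log2 difference after setting low values to 100 0.41, adjusted p = 0.0578). Both were highest on the 2 WTR arrays, and neither passed. Other markers of the list lay the other way: Cldn2 read 328 and 299.9 in WTR against 407 and 355 in WNR, Wfdc2 767 and 739 in WTR against 1095 and 889 in WNR, and Car12 2069 and 1812 in WTR against 2329 and 2227 in WNR. In all, 16 of the 26 further markers had a positive difference in WTR against WNR.

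In naïve mice 6 of 26 were lower in KNR than in WNR, among them Wfdc2 (log2 difference -1.54, adjusted p = 0.0156), the paracellular channel protein Cldn2 (-0.99, adjusted p = 0.0487), Vat1l (-0.58, adjusted p = 0.0245) and the carbonic anhydrase Car12 (-0.54, adjusted p = 0.0408), while Igf2 was higher (0.48, adjusted p = 0.0415). Of all probes 3.33% were called lower and 4.7% higher. The list median was -0.138, against 0 over all probes. After training 1 of 26 differed, Cldn1, which was higher in KTR than in WTR (0.86, adjusted p = 0.0264), with a list median of -0.175 against 0.0143 over all probes, of which 0.741% were called higher. In the interaction 2 of 26 were higher, Wfdc2 (1.23, adjusted p = 0.0414) and Cldn1 (0.997, adjusted p = 0.0324), and 2 lower, Pcolce2 (-1.50, adjusted p = 0.0414) and Igf2 (-0.74, adjusted p = 0.0414), against 1.83% of all probes called higher and 3.35% lower. The summed intensity of the 27 further markers was 32215 to 35443 in KTR, 31192 to 31376 in KNR, 34845 to 34904 in WTR and 32762 to 33810 in WNR. It was thus lowest in KNR, and Slc22a17 alone gave 11218 to 13226 of it. The sum of the 6 genes, most of it Ttr, was lowest in WNR, as Ttr itself was. With each gene centred on its mean log2 intensity, the mean of the 6 was instead lowest in KNR. It was -0.385 and -0.311 there, against -0.213 and -0.19 in WNR. Their median, centred likewise, overlapped between KNR (-0.323 and -0.248) and WNR (-0.304 and -0.376). The difference between the sums therefore does not describe the 6 genes as a set.

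Genes tied to the functions of the 6 were taken from fixed lists. Of 12 tested genes of cerebrospinal fluid secretion, Fxyd1 (log2 difference 0.98, adjusted p = 0.0255) and the carbonic anhydrase Car4 (1.02, adjusted p = 0.029) were higher in WTR than in WNR. The cotransporter Slc12a2 was lower (-0.62, adjusted p = 0.0319), against 3.25% of all probes called higher and 2.99% lower. The same genes passed in the same direction without training, in KNR against WNR: Fxyd1 (0.76, adjusted p = 0.0267 in limma), Car4 (0.88, adjusted p = 0.0289) and Slc12a2 (-0.53, adjusted p = 0.0375). Of all probes 4.7% were called higher there and 3.33% lower. The interaction was negative for Fxyd1 (-1.01, adjusted p = 0.0391) and Car4 (-1.20, adjusted p = 0.0399), against 3.35% of all probes called lower. After training in knockout mice 0 of these 12 rose and 3 fell, the sodium pump subunits Atp1b3 (-0.99, adjusted p = 0.0187) and Atp1b1 (-0.75, adjusted p = 0.0315) and Slc12a2 (-0.44, adjusted p = 0.0393), against 6.6% of all probes called higher and 9.29% lower. Of 17 carriers and receptors of thyroid hormone and retinol, which share the cargo of Ttr, 0 passed in either training comparison (medians 0.187 in KTR against KNR and 0.154 in WTR against WNR). Of 13 folate genes beside Folr1, Mthfd1, an enzyme that loads carbon units on folate, rose in KTR against KNR (0.66, adjusted p = 0.0339) and 0 passed in WTR against WNR. Of 14 genes of the lysophosphatidic acid pathway of Enpp2, 6 possible partners of Kcne2 and 3 further Trpm channels, 0 passed in either training comparison.

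Markers of other tissues that a dissection can bring along were set beside these results. Of all probes 6.6% were called higher and 9.29% lower in KTR against KNR, and 3.25% higher and 2.99% lower in WTR against WNR. Of 13 ependymal genes, the ciliary gene Meig1 was higher in WTR than in WNR (log2 difference 0.52, adjusted p = 0.0413), and Dnali1 (0.66, adjusted p = 0.0286) and Dynlrb2 (0.59, adjusted p = 0.031) were higher in KTR than in KNR; the summed ependymal intensity was 4548 to 4632 in KTR, 4021 to 4354 in KNR, 5379 to 5458 in WTR and 4457 to 4781 in WNR. Of 20 meningeal fibroblast genes, Mgp was higher in WTR than in WNR (0.55, adjusted p = 0.0322), and in KTR against KNR 0 rose and 4 fell, among them Fmod (-0.89, adjusted p = 0.0178) and Col3a1 (-0.67, adjusted p = 0.0377). The summed meningeal intensity was 17253 to 17333 in KTR, 17696 to 18312 in KNR, 16938 to 17978 in WTR and 13783 to 14875 in WNR. Of 19 endothelial and mural genes 1 rose and 5 fell in KTR against KNR and 1 rose and 2 fell in WTR against WNR, with summed intensities of 15499 to 15821 in KTR, 18815 to 19000 in KNR, 16664 to 17398 in WTR and 17038 to 18509 in WNR. Ependyma and meninges thus had higher sums in WTR than in WNR, as the 6 genes did. In KTR against KNR the ependymal sum was also higher, as that of the 6 genes was, while the meningeal sum was lower. The list medians in WTR against WNR were 0.234 for meninges and 0.167 for ependyma, against 0.107 for the further choroid plexus markers. In KTR against KNR they were -0.249, -0.0119 and 0.22. The part of such tissue in the differences of the 6 genes was not tested, and in pooled tissue fewer cells of a type and less RNA per cell cannot be told apart.

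Enpp2 is also an oligodendrocyte gene, so its fall in KTR was set beside that list. Of 19 tested oligodendrocyte genes 6 fell and 0 rose in KTR against KNR, where 9.29% of all probes were called lower and 6.6% higher, among them Cldn11, the tight junction protein of myelin (log2 difference -0.65, adjusted p = 0.023), Apod (-0.56, adjusted p = 0.0303), Fa2h (-0.54, adjusted p = 0.0477) and Gsn (-0.51, adjusted p = 0.0393). Cldn11 was also lower in KTR than in WTR (-0.72, adjusted p = 0.0383), the only gene of the list to pass there, where 1.26% of all probes were called lower. The medians of the list were -0.121 in KTR against KNR and -0.167 in KTR against WTR, against -0.0105 and 0.0143 over all probes. The summed intensity of the 20 measured genes, 1 of them under 100 on all arrays, was 99586 to 106180 in KTR, 120090 to 122100 in KNR, 122110 to 124250 in WTR and 118670 to 122070 in WNR. It was lowest in KTR, where Enpp2 was lowest too. Of the 19 tested genes 7 had a positive difference in KTR against KNR. Lower medians than in this list were found there for pyramidal cells (-0.425), endothelial and mural cells (-0.264) and meningeal fibroblasts (-0.249). In KNR against WNR the oligodendrocyte median was 0.061, whereas Enpp2 had a log2 difference of -0.34. Of 17 microglial and macrophage genes 5 fell and 0 rose in KTR against KNR (9.29% of all probes lower, 6.6% higher), with a list median of -0.397. In WTR against WNR 2 fell and 1 rose (2.99% of all probes lower, 3.25% higher). The part of any of these lists in the Enpp2 difference was not tested.

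Of 13 genes of the neighbouring thalamus and habenula Zic4 (log2 difference 0.92, adjusted p = 0.0282) and Necab1 (0.49, adjusted p = 0.026) rose in KTR against KNR, where 6.6% of all probes were called higher and 9.29% lower (3.25% and 2.99% in WTR against WNR). In WTR against WNR 0 rose and Necab1 fell (-0.50, adjusted p = 0.0339 in limma). In KNR against WNR Necab1 was lower (-0.56, adjusted p = 0.0267 in limma) and Tac1 higher (0.55, adjusted p = 0.047), against 3.33% of all probes lower and 4.7% higher. Zic4 read 2264 and 2341 in KTR against 1151 and 1281 in KNR, and 2201 and 1737 in WTR against 1713 and 1226 in WNR. It was high in KTR and low in KNR, as Trpm3 was, and the summed intensity of the list was 18472 to 18561 in KTR, 13252 to 14869 in KNR, 15048 to 16427 in WTR and 14017 to 18218 in WNR. Its part in the Trpm3 difference was not tested. Of 14 astrocyte genes 0 passed in KTR against KNR, and 1 was higher (S100b) and 1 lower (Fgfr3) in WTR than in WNR. Of 10 dentate granule cell genes Prox1 was lower in KTR than in KNR (-1.11, adjusted p = 0.0151) and in WTR than in WNR (-0.63, adjusted p = 0.0451). Of 12 pyramidal cell genes Spink8 was lower in KTR than in KNR (-1.28, adjusted p = 0.0164). Of 3 red blood cell genes Slc4a1 was higher in KTR than in KNR (1.31, adjusted p = 0.0329) and Alas2 lower in WTR than in WNR (-0.60, adjusted p = 0.0422).

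**Figure D4:**
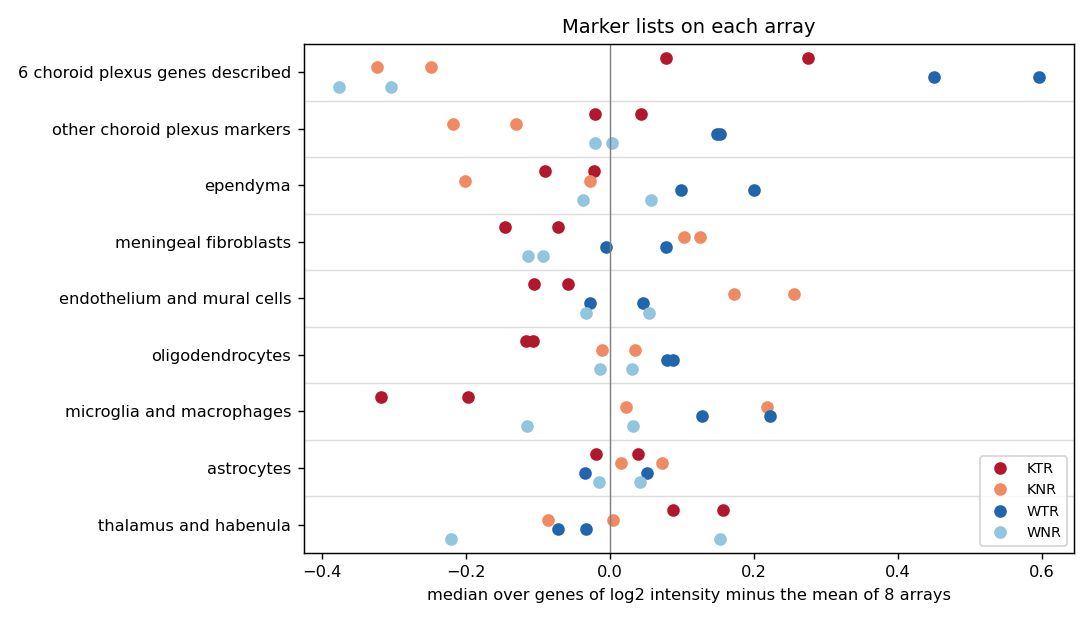
Median over the genes of each list of the log2 intensity minus its mean over the 8 arrays, 1 point per array and 4 colours for the groups. The 6 genes stood at 0.451 and 0.597 in WTR against -0.376 and -0.304 in WNR, and the other choroid plexus markers at 0.149 and 0.153 in WTR against -0.0209 and 0.00324 in WNR.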

How the data were processed

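Right hippocampal RNA of the 4 groups was hybridised to one-colour Cy5 arrays, 8 arrays in all. The deposited values are intensities on a linear scale, which the authors quantile normalized; the methods name a floor of 100 on raw values, yet the deposited values reach down to 4.18, so the floor was set here. The 13539 empty probes were left out. Of 16383 probes with values 13072 had 1 symbol in an old annotation and 3311 none, 2101 symbols were updated and 26 were absent from RefSeq; where a gene had several probes, the one with the highest mean stood for it.

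Values under 100 were set to 100, log2 was taken, and probes above 100 on at least 2 arrays of a fit were tested with limma 3.58.1 in R 4.3.3. Intervals are at 95%, and a fold is a ratio of geometric means, "at least" where a group lay under 100. The members and lists were chosen with earlier results of these data known, as was the use of the fit of all 8 arrays beside the pairwise fit, which keeps the 4-array comparisons of the study's methods but replaces their SAM and fold threshold with limma; calls of the fit of all 8 arrays are used in the text because the pairwise fits called almost nothing. Named beside the 6 genes were up to 4 genes per list and comparison with the largest passing differences, and the 5 genes most correlated with the mean of the 6 and with Ttr, among genes with a mean over 200 and a log2 range of at least 1; others are marked as chosen after their values were seen, as were Kl in KTR against KNR, Igf2 in KNR against WNR, and the WTR and WNR values of Cldn2, Wfdc2 and Car12, which lie outside that rule. Candidates for likeness were ranked over 8 arrays. SAM was run over 6 label orders at q under 0.01 and over 2-fold. Its first version, which averaged false calls over the orders, could call nothing, and it was rewritten with their median after that result was seen. The fits were tested on simulated data. Alternatives were other floors (50, 200 or none), quantile normalization after the floor, median centring, other filters, the replicate number as a block, and fits without single arrays. Probe coordinates are not used here.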

Additional observations from a re-analysis of the deposited data

Results flagged for a closer look

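For 3 genes, genotype or training differences pointed to opposite sides with no overlap between arrays, although the interaction in limma passed 0.05 for none of them. In a single comparison, arrays did not overlap in a given direction for 25.6% to 34.4% of all probes with values. The share of all probes with opposite differences of this kind is not given here. The interaction of Enpp2 was -0.9999 (adjusted p = 0.0518): its intensity was lower in KTR than in KNR on all arrays and higher in WTR than in WNR. For Ttr it was -0.7527 (adjusted p = 0.0605): KTR lay below WTR, whereas KNR lay above WNR. For Trpm3 it was 1.67 (adjusted p = 0.0651): KTR lay above WTR, whereas KNR lay below WNR.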

How the results depend on the processing

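With a floor of 200, under which Folr1 and Kcne2 lay on most arrays, 1 of the 6 genes passed in KTR against KNR, 1 in KNR against WNR and 1 in the interaction in the fit of all 8 arrays, and 1 in the pairwise fit of WTR against WNR, while in the fit of all 8 arrays 3 passed in WTR against WNR, with Folr1 and Kcne2 lost and Enpp2 gained; Kcne2's interaction turned to 0.056. With dim probes filtered at 200, 1 passed in the interaction. SAM called 1 in WTR against WNR. In the fit of all 8 arrays without single arrays the count ran from 0 to 4 in KTR against KNR, 0 to 1 in KTR against WTR, 0 to 2 in WTR against WNR and 0 to 1 in the interaction, and Kcne2's interaction ran from -0.217 (without WNR replicate 1) to 0.0627 (without WNR replicate 2), also turning to 0.016 without KTR replicate 1; these fits have fewer arrays. Without KNR replicate 1 and KTR replicate 2 together, 0 passed in KTR against KNR, KTR against WTR and WTR against WNR. Equal replicate numbers were not taken to pair arrays, since their deviations did not correlate in every pair of groups: r was 0.439 for KTR with KNR and 0.274 for WTR with WNR, but -0.384 to -0.243 for the 4 pairs of different genotype; with a replicate block the pairwise fit called 3 genes in WTR against WNR and 5 in KTR against KNR, and the fit of all 8 arrays 0 in WTR against WNR. No other change of sign occurred. Of the single-gene differences in the fit of all 8 arrays, 328 kept their side of the threshold under an alternative, 78 lost their call and 2 gained one; in the pairwise fits 261 kept it and 9 gained one. The causes were not tested. Folr1 lies too close to 100 for a fold in KNR against WNR. Without the same 2 arrays the correlations of the 10 genes most like the 6 or Ttr ran from 0.856 to 0.977, but the ranking changed. Of the genes named as closest to the mean of the 6, only Pcp2 stayed among the first 5. Of those named for Ttr, only Atad3aos and Sp3os did.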
